A study of Homo sapiens and Mus musculus with 22 samples.

Results

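The 9 genes described here had higher RNA in SETDB1 knockout (KO) U2OS cells than in wild type (WT) cells and were followed across all human RNA libraries of the series. They were chosen by their FPKM (fragments per kilobase of transcript, scaled to the mapped fragments) in the KO libraries against WT, so that difference is described here without a test. The 9 genes are the long noncoding RNA genes LINC01164, LINC00664 and LINC00665, the protein-coding genes ACTL8, AURKC, ZFP30, ZFP14 and GPX3, and the transcribed pseudogene AACSP1. Each was found under its own symbol among the 24549 genes of the SETDB1 table and the 23760 genes of the ATG5 table, and 0 entries that join several symbols held any of them. The working name for the set was silent loci opened by SETDB1 loss. Both WT libraries were under an FPKM of 1 for 5 genes only, and no chromatin data were analysed here, so the set is called the 9 SETDB1-sensitive genes.

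U2OS is a human osteosarcoma line. The SETDB1 set held mock-treated cells of SETDB1 KO1, SETDB1 KO2 and WT, with 2 libraries per group. The ATG5 set held cells with an ATG5 knockdown (KD) or a vector, each treated with 10 µM BIX-01294 (BIX) for 12 h or labelled mock, with 1 deposited value per group that stands for 2 replicates per the labels. The treatment note of the RNA samples says that all cells received BIX, so mock is used here as the sample names give it. The labels do not say whether a knockout is a single clone or whether the libraries came from separate cultures, so p-values measure the spread between these libraries, which may be technical.

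SETDB1 methylates histone H3 at lysine 9 and is brought to its targets by KRAB zinc finger proteins through TRIM28. The resulting H3K9me3 keeps retroviral elements, zinc finger gene clusters and some germline genes at low transcription in somatic cells. BIX-01294 inhibits EHMT1 and EHMT2, which place mono- and dimethylation on the same lysine. ATG5 is needed to form autophagosomes.

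SETDB1 RNA was at 5.90 and 7.03 FPKM in the KO1 libraries, 6.89 and 7.35 in KO2 and 9.98 and 9.32 in WT. It fell by 0.45 on the log2(FPKM + 1) scale in the mean of the KOs (SE 0.109, limma adjusted p = 0.0434), but taken one at a time against WT the limma adjusted p was 0.0571 for KO1 and 0.203 for KO2. ATG5 RNA was at 13.4 FPKM in KD BIX, 10.1 in KD mock, 12.3 in vector BIX and 11.3 in vector mock, so the KD is named by its label. Vimentin, the mesenchymal filament gene VIM, stood at 937 to 1033 FPKM in the SETDB1 set, and 8 of 12 mesenchymal and bone markers reached an FPKM of 1 in at least 1 library. BGLAP was counted through an entry joined with PMF1, so its own level is not known. The bone factor SP7 and TWIST1, also on this list, were listed at 0 in all 6 libraries, and COL1A2 and IBSP stayed under an FPKM of 1. Blood markers summed to 0.106 to 0.304 FPKM in the KO libraries and 0.214 to 0.387 in WT, with 0 of 5 reaching an FPKM of 1. Epithelial markers summed to 722 to 845 FPKM in the KO libraries and 840.1 to 955 in WT, with 4 of 6 reaching an FPKM of 1, led by the keratins KRT8 and KRT18. Relative depth within the SETDB1 set was read from the commonest ratio between low values. WT had 0.909 of the reads of KO1 among the libraries numbered 1 and 0.783 among those numbered 2, and KO2 had 0.891 and 0.723.

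The RefSeq promoter table (GRCh38.p14, 250 bases before to 50 bases after a start) holds 6 of the 9 genes; LINC01164, ZFP14 and AACSP1 have no entry. Promoters are shown for ACTL8, which had the largest ratio of KO to WT, for AURKC and LINC00665, which were also nearly silent in WT, and for ZFP30, which had the highest level in the KOs. LINC00664 also has an entry and had a lower WT mean (0.149 FPKM) than AURKC (0.493) and LINC00665 (0.428), but is not printed. The WT level alone thus did not set the choice. ZFP30 has a pair of start sites in the table and both are shown. Capitals mark matches to the motifs searched on both strands. These were the E-box (CACGTG), the CCAAT box, the ETS core written as CCGGAA, the TATA box written as TATAAA, and the core of a cAMP response element, written as TGACG.
ACTL8, chr1:17755083-17755382, plus strand: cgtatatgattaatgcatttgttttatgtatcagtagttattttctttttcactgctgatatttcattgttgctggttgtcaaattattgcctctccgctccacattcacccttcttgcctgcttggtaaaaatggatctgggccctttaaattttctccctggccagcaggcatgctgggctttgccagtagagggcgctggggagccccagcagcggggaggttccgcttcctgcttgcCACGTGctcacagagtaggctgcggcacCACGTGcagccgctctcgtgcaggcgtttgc
AURKC, chr19:57230773-57231072, plus strand: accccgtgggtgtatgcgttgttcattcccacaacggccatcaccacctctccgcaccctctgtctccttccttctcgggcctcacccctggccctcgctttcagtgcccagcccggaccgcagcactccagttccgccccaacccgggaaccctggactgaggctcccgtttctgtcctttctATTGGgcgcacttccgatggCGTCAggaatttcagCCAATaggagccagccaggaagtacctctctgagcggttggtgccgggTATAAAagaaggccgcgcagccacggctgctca
LINC00665, chr19:36331669-36331968, minus strand: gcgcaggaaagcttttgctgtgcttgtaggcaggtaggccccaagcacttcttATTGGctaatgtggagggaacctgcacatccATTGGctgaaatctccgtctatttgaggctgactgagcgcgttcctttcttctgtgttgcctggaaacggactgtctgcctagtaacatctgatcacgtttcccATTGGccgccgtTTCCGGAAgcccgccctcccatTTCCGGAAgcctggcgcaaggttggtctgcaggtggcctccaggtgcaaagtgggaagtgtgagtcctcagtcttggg
ZFP30 upstream start, chr19:37656212-37656511, minus strand: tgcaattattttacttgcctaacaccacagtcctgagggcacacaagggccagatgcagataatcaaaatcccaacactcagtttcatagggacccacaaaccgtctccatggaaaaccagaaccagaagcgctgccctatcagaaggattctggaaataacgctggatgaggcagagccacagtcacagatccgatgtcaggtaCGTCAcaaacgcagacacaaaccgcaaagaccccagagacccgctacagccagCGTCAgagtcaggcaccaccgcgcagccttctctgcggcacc
ZFP30 downstream start, chr19:37655416-37655715, minus strand: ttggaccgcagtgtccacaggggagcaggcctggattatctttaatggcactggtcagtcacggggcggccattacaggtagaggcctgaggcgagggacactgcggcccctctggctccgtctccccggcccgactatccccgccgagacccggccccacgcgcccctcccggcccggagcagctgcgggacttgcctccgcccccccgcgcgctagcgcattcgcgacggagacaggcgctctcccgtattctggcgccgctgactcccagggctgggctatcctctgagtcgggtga

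No motif was common to the 6 genes. The percentages given here are shares of promoters with at least 1 match. The motifs were chosen after seeing these promoters, so the shares are no test of the matches. The ACTL8 promoter held 2 E-boxes, a motif found in 7.2% of the 34796 promoters of the table. The AURKC promoter held a TATA box (11.6% of all promoters), 2 CCAAT boxes (34.6%) and a TGACG match (24.5%). The LINC00665 promoter held 3 CCAAT boxes and 4 matches to the ETS core (17.2%), the ETS matches in overlapping pairs on opposite strands. The upstream start of ZFP30 held 2 TGACG matches and the downstream start none of the motifs. Of the promoters not printed, that of GPX3 held 2 CCAAT boxes and that of LINC00664 held 1 TGACG match. CpG dinucleotides numbered 11 at ACTL8, 12 at the LINC00665 start shown, 19 at AURKC, 20 at LINC00664 and 21 at GPX3, and 12 and 29 at the upstream and downstream starts of ZFP30. All promoters had a median of 14 CpG and an interquartile range of 4 to 28, so the 6 genes stood near the middle of the table or, for the downstream start of ZFP30, above its upper quartile. A match is a run of letters and no evidence of binding, and the FPKM values do not separate start sites.

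Among the germline and noncoding genes of the set, RNA was close to 0 in WT and clearly present in both KOs. ACTL8, an actin-like gene of the cancer-testis class, was at 15.5 and 11.2 FPKM in KO1, 12.5 and 8.75 in KO2, and 0.163 and 0.0486 in WT. Its mean over the 4 KO libraries was 113 times its WT mean, and the lowest KO library was 53.6 times the highest WT library. A ratio over so small a WT level rests on few reads and its size is uncertain. AURKC, the Aurora kinase of meiotic cells, was at 5.99 and 5.65 FPKM in KO1, 7.58 and 6.38 in KO2, and 0.443 and 0.542 in WT, a ratio of means of 13.0. Both genes were higher in every KO library than in every WT library.

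LINC01164, on chromosome 10, was at 19.1 and 23.5 FPKM in KO1, 18.6 and 17.5 in KO2, and 0.942 and 0.580 in WT. Its KO minus WT difference was 3.55 on the log2(FPKM + 1) scale, close to the 3.53 of ACTL8. LINC00664 was at 9.18 and 8.06 FPKM in KO1, 7.27 and 7.60 in KO2, and 0.0958 and 0.203 in WT. LINC00665 was at 8.37 and 6.55 FPKM in KO1, 6.82 and 6.32 in KO2, and 0.385 and 0.470 in WT. The ratio of KO to WT means was 25.8 for LINC01164, 53.8 for LINC00664 and 16.4 for LINC00665, and the libraries of KO and WT did not overlap for any of the 3.

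**Figure D1:**
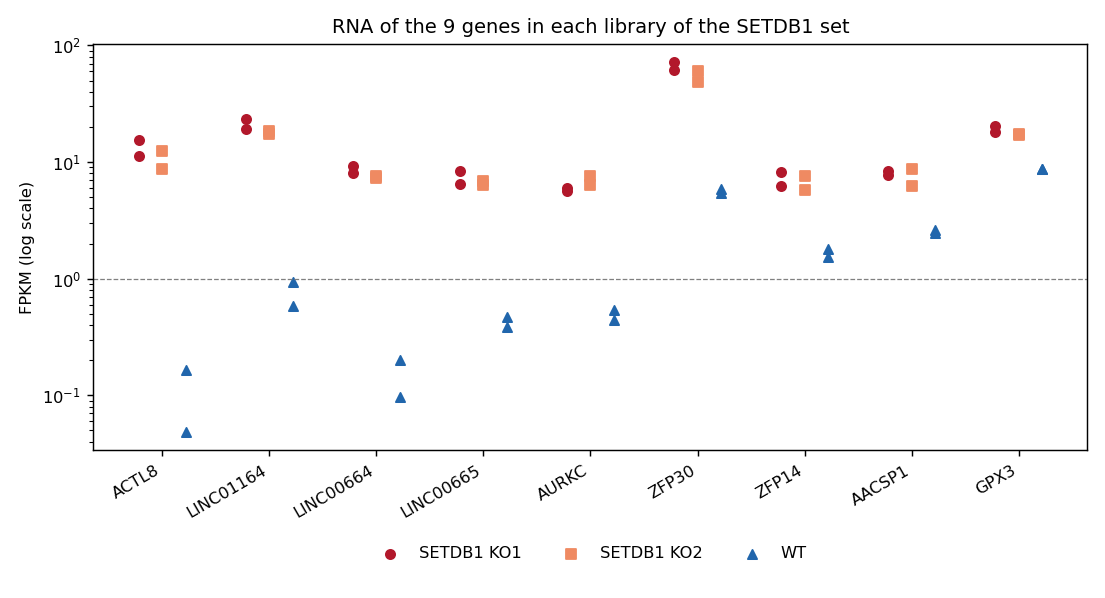
FPKM (log axis) of each of the 9 genes in the 2 libraries each of SETDB1 KO1 (circles), SETDB1 KO2 (squares) and WT (triangles), with a dashed line at an FPKM of 1. All KO points lie above the WT points of the same gene, and both WT points lie under the line for ACTL8, LINC01164, LINC00664, LINC00665 and AURKC.

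The other 4 genes were not silent in WT. ZFP30, a KRAB zinc finger gene, was at 62.0 and 71.5 FPKM in KO1, 48.6 and 60.9 in KO2, and 5.90 and 5.4 in WT. It had the highest level of the 9 genes in the KOs, with a ratio of means of 10.8. ZFP14, another gene of this family, was at 6.28 and 8.15 FPKM in KO1, 5.73 and 7.64 in KO2, and 1.55 and 1.80 in WT, a ratio of 4.15. Reads of zinc finger paralogs can be shared or split by the alignment, so levels of these genes are uncertain to that extent.

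AACSP1, a pseudogene of the acetoacetyl-CoA synthetase gene AACS, was at 8.35 and 7.79 FPKM in KO1, 8.74 and 6.24 in KO2, and 2.48 and 2.61 in WT, a ratio of 3.05. AACS itself, with which it may share reads, was at 13.4 and 14.8 FPKM in KO1, 13.5 and 12.6 in KO2, and 17.1 and 17.1 in WT (difference -0.31, limma adjusted p = 0.132). GPX3, which encodes the secreted glutathione peroxidase of plasma, had the smallest ratio, 2.08. It was at 20.2 and 18.0 FPKM in KO1, 17.4 and 17.2 in KO2, and 8.77 and 8.75 in WT, again without overlap. In bulk RNA, more cells with a transcript and more transcript per cell cannot be told apart.

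In all, 9 of 9 genes had all 4 KO libraries above both WT libraries, against 10.2% of the genes tested. This count follows from how the genes were chosen. All 9 were past the low-value filter (2 libraries reaching an FPKM of 1), but ACTL8, AURKC, LINC01164, LINC00664 and LINC00665 passed through the KO libraries alone. By level per length, the order in the KOs was ZFP30 (mean 60.7 FPKM), LINC01164 (19.7), GPX3 (18.2), ACTL8 (12.0), LINC00664 (8.03), AACSP1 (7.78), LINC00665 (7.01), ZFP14 (6.95) and AURKC (6.40). In this order the libraries of ZFP30 were clear of those of LINC01164, and those of GPX3 clear of those of ACTL8, while every other pair of neighbours overlapped. In WT the order was GPX3 (8.76), ZFP30 (5.65), AACSP1 (2.55), ZFP14 (1.67), LINC01164 (0.761), AURKC (0.493), LINC00665 (0.428), LINC00664 (0.149) and ACTL8 (0.106). There the ranges of AURKC and LINC00665, and of LINC00664 and ACTL8, overlapped. The set therefore spanned a wide range of levels in WT and a narrower one in the KOs.

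The contrast between the 2 knockouts was not used to choose the genes and was tested. None of the 9 genes differed between KO1 and KO2 at a limma adjusted p under 0.05 (0 of 12619 genes did; 206 genes, or 1.63%, had an unadjusted p under 0.05). Among the 9, ZFP30 was the gene with an unadjusted p under 0.05 when all libraries were used. It was 0.29 higher in KO1 (log2(FPKM + 1) scale, 95% interval 0.01 to 0.57, limma unadjusted p = 0.0455, adjusted p = 0.9998). Its difference was 0.13 without the first KO2 library, 0.19 without the second KO1 library, 0.39 without the first KO1 library and 0.45 without the second KO2 library. The interval reached furthest from 0 for ACTL8 (difference 0.31, interval -0.09 to 0.71), so these libraries do not exclude a difference of that size. The difference of ACTL8 was 0.08 without the second KO2 library and 0.09 without the first KO1 library. It was 0.54 without the first KO2 library and 0.53 without the second KO1 library. The lowest limma adjusted p of any of the 9 with a library left out was 0.962. AURKC had the opposite sign to the rest (-0.22, interval -0.53 to 0.08), and the other 8 had higher means in KO1, against 47.2% of the genes tested. The sign turned when 1 KO library was left out for AACSP1 (-0.10), LINC00665 (-0.0032) and ZFP14 (-0.07 and -0.08). The libraries of KO1 and KO2 did not overlap for 5 of the 9, against 22.3% of all genes.

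**Figure D2:**
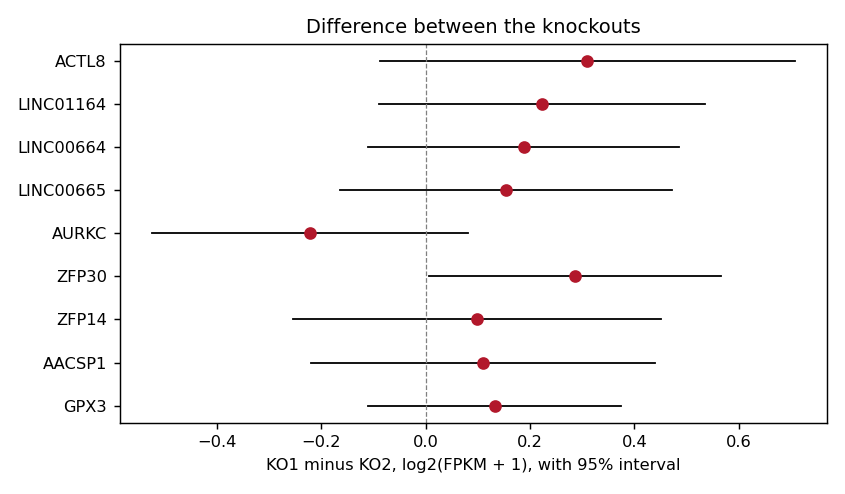
KO1 minus KO2 on the log2(FPKM + 1) scale (x axis) for the 9 genes (y axis), with points for the limma estimate and lines for its 95% interval. The interval includes 0 for 8 genes and runs from 0.01 to 0.57 for ZFP30.

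On chromosome 19 lie 5 of the 9 genes, LINC00664, LINC00665, AURKC, ZFP30 and ZFP14. AACSP1 and GPX3 lie on chromosome 5, and ACTL8 and LINC01164 lie on chromosomes 1 and 10 (RefSeq, GRCh38.p14). LINC00665 and ZFP14 are next to each other. For 6 of the 9 genes (66.7%) a zinc finger gene by name was among the 3 nearest genes on either side, against 6.14% of 11180 tested genes that could be placed. Among the 10721 of these that are not zinc finger genes the share was 3.41%. Of the 6, ZFP30 and ZFP14 are zinc finger genes themselves. LINC00665 and ZFP14 share neighbours, so they are not separate cases. The genes next to the 9 were taken from that annotation by position alone, and their KO and WT values were not part of how the 9 were chosen. The 3 nearest on each side made 48 genes other than the 9, of which 19 had an entry in the SETDB1 table and 17 were tested.

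Of these 17 neighbours, 10 rose in the mean of the KOs (limma adjusted p under 0.05), against 2.45% of all genes tested (0.777% were lower and 3.23% changed in either direction). By the same test 0 fell, and 1 was lower at an unadjusted p under 0.05. Of the 17, 5 were under an FPKM of 1 in both WT libraries and so entered the test only through higher KO values, and 4 of these, ZNF493, ZNF429, ZNF571 and ZNF607, are among the 10. Of the other 12, with a WT library at an FPKM of 1 or more, 6 rose, against 1.85% of all genes of that kind. Zinc finger genes were 5 of these 6, out of 8 tested, against 24.9% of zinc finger genes of that kind. Over all 17, zinc finger genes made up 9 of the 10, out of 13 tested, whereas 30.1% of all 468 tested zinc finger genes rose. The tenth was TCERG1L, 1 of 4 tested neighbours that are not zinc finger genes, against 1.38% of such genes at large. The joined entry of ZNF540 and ZNF571-AS1 counts as a zinc finger gene among the neighbours, here and in the wider set below. In the shares of all genes it falls among the other genes, so the classes differ by that entry.

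Beside LINC00664, ZNF493 was at 2.38 and 3.27 FPKM in KO1, 1.90 and 1.92 in KO2, and 0.0451 and 0.0177 in WT, a rise of 1.69 (SE 0.14, limma adjusted p = 1.77e-05). ZNF429, on its other side, rose by 1.49. Beside LINC00665 and ZFP14, ZFP82 was at 9.04 and 11.1 FPKM in KO1, 11.3 and 11.8 in KO2, and 2.93 and 3.26 in WT, a rise of 1.52 (SE 0.114, limma adjusted p = 8.55e-06). ZNF566, further out on that side, rose by 1.12, while ZNF565 on the far side of LINC00665 stood at a mean of 1.39 FPKM in KO1, 1.55 in KO2 and 1.39 in WT (difference 0.04). Higher RNA was thus found at LINC00665, ZFP14, ZFP82 and ZNF566, and ZNF565 on the other flank did not pass. Beyond ZNF566, ZNF260 was at a mean of 14.3 FPKM in KO1, 13.4 in KO2 and 9.43 in WT, a rise of 0.50 (limma adjusted p = 0.0354).

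Around ZFP30, the joined entry of ZNF540 and ZNF571-AS1 was at 6.85 and 7.43 FPKM in KO1, 7.02 and 6.93 in KO2, and 1.42 and 1.59 in WT, a rise of 1.69 (SE 0.11, limma adjusted p = 2.93e-06). ZNF607 rose by 1.61 and ZNF571 by 1.12, so the tested neighbours among the 3 nearest genes on both sides of ZFP30 rose. Beyond ZNF607, ZNF573 was at a mean of 1.62 FPKM in KO1, 1.22 in KO2 and 0.691 in WT. Its difference of 0.51 did not pass (limma adjusted p = 0.101). AACSP1 lies between ZNF354A and ZNF354B, which rose by 0.65 and 0.84. ZNF354A did not pass without the first WT library (213 genes rose in all without it, against 309 with it) or with no filter on low values.

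At AURKC the neighbours differed from the gene. ZNF264 was at a mean of 2.15 FPKM in KO1, 1.87 in KO2 and 1.5 in WT. ZNF805 was at 1.41 in KO1, 1.21 in KO2 and 0.917 in WT, and ZNF460 at 1.39 in KO1, 1.23 in KO2 and 1.22 in WT. Their differences of 0.26, 0.26 and 0.06 did not pass the limma test. At GPX3 the neighbours TNIP1 (0.03) and ANXA6 (0.02) did not pass, nor did ARHGEF10L at ACTL8 (-0.27). TCERG1L, beside LINC01164, was at 1.77 and 2.30 FPKM in KO1, 2.58 and 2.42 in KO2, and 1.01 and 1.36 in WT, a rise of 0.58 (SE 0.136, limma adjusted p = 0.0396) that passed in 6 of 13 alternative settings. It did not pass without KO1 replicate 2, either KO2 library or either WT library.

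Taking the 3 nearest genes on each side that have an entry in the table, a choice made after seeing the data, 16 of 33 tested neighbours rose and 0 fell (limma), against 2.45% of all genes higher. Zinc finger genes were 15 of these, out of 22 tested, against 30.1% of that class, and 1 of 11 other genes rose, against 1.38%. With a WT library at an FPKM of 1 or more, 10 of 25 rose, against 1.85% of all genes of that kind. Zinc finger genes were 9 of these 10, out of 14 tested, against 24.9% of zinc finger genes of that kind. In this wider set ZNF300, the second such gene from GPX3, was at 9.71 and 12.2 FPKM in KO1, 10.1 and 11.2 in KO2, and 2.40 and 3.17 in WT, a rise of 1.65 (SE 0.128, limma adjusted p = 1.13e-05). It rose more than GPX3 itself on this scale. The long noncoding RNA gene CYKILR overlaps LINC00665 and had no entry, and as the sources name no strand setting, reads of the pair cannot be told apart.

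**Figure D3:**
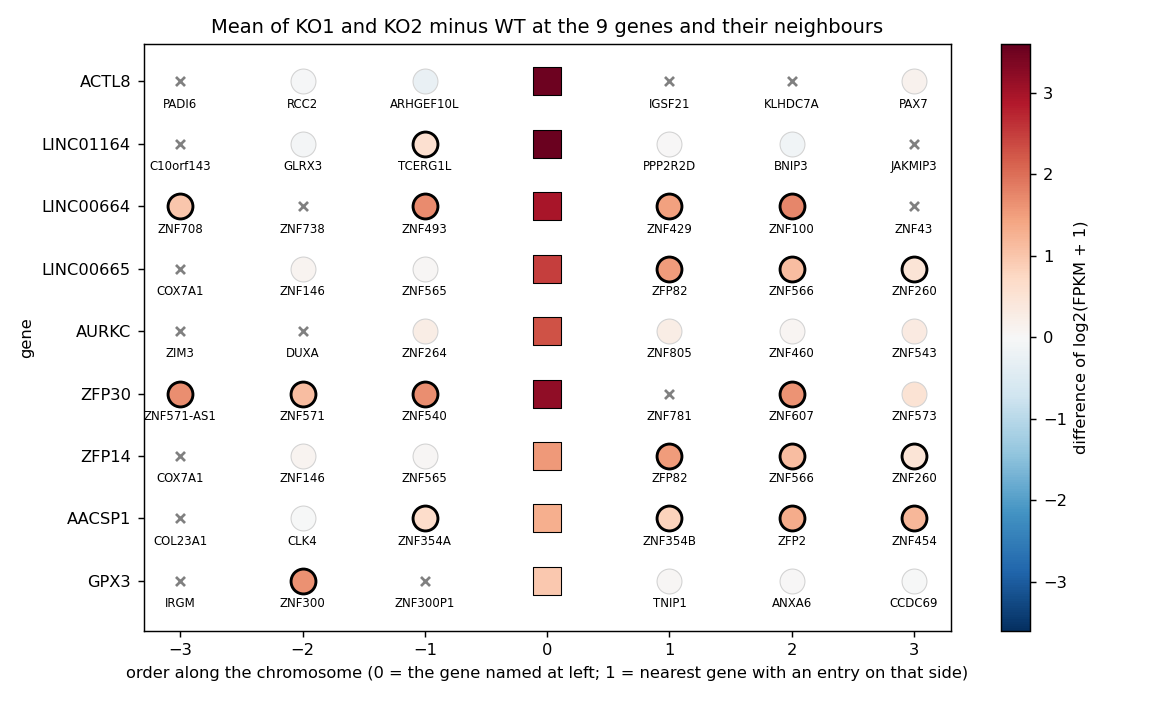
Mean of KO1 and KO2 minus WT, as the difference of log2(FPKM + 1) (colour), for the 9 genes (squares) and the 3 nearest genes with an entry on each side (circles, x axis by order along the chromosome). Thick black outlines mark neighbours at a limma adjusted p under 0.05, and crosses mark untested genes. Called neighbours lie on both sides of LINC00664, ZFP30 and AACSP1, though not at every position, while none adjoin AURKC or ACTL8.

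Lists of related genes, written by hand, were set beside each family. The catalogue of silencing factors had 28 tested genes, of which 2 rose and 1 fell, with a median of -0.01. Of all genes tested, 2.45% rose and 0.777% fell. At a limma unadjusted p under 0.05, 5 of the 28 were higher and 1 lower, but no share of all genes is given at that threshold. The 1 that fell was SETDB1, the knocked-out gene itself. ATF7IP, the partner that protects SETDB1 from degradation, rose by 1.2 (34.3 and 31.7 FPKM in KO1, 30.3 and 40.9 in KO2, 14.3 and 14.3 in WT, limma adjusted p = 5.56e-05), and its paralog ATF7IP2 rose by 0.77 (limma adjusted p = 0.0111). Zinc finger genes with ZFP names, ZFP30 and ZFP14 left out, rose in 5 of 15 and fell in 0 (8 higher and 0 lower at an unadjusted p under 0.05), with a median of 0.29. That share is near the 30.1% of all tested zinc finger genes that rose, so it says nothing particular about the ZFP names. The largest differences were at ZFP82 (1.52), ZFP90 (1.39), ZFP2 (1.33) and ZFP28 (1.04). Of these, ZFP2 was under an FPKM of 1 in both WT libraries (0.894 and 0.840). It therefore entered the test only through higher KO values. ZFP82 is also a neighbour of ZFP14, and ZFP2 lies in the wider neighbourhood of AACSP1.

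The relatives of the other genes did not pass the limma test. Of 7 tested Aurora kinases and partners, 0 were called and 1 was lower at an unadjusted p under 0.05. AURKA was at 75 and 72.4 FPKM in KO1, 80.7 and 75.6 in KO2, and 72.2 and 76.7 in WT, and AURKB differed by -0.05. Of 4 glutathione peroxidases other than GPX3 and 9 actin-related genes other than ACTL8, 0 were called and 0 had an unadjusted p under 0.05. Of 7 ketone body and acetoacetyl-CoA genes 0 were called, with 5 lower at an unadjusted p under 0.05. Their median was -0.31, against -0.01 for all genes tested. The share of all genes lower at that unadjusted threshold is not given here, so the 5 have no background to be set against. The germline and cancer-testis list had 36 genes in the table, of which 9 other than ACTL8 reached the filter. Of these 0 were called by limma and 1 was higher at an unadjusted p under 0.05, with a median of -0.16. Germ cell markers summed to 2.57 to 2.62 FPKM in the KO libraries and 2.71 to 3.52 in WT, with ZP3 as the only 1 of 6 at an FPKM of 1 or more, and the germ cell genes DAZL and PRM1 were listed at 0 in all 6 libraries. ACTL8 and AURKC were thus higher in the KOs while this list and these markers showed no call.

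For each of the 9 genes the most similar pattern among 11248 other genes was sought over the 10 U2OS values, by the root mean square difference of log2(FPKM + 1) centred within each table. ZNF733P had mean FPKM of 7.47 in KO1 and 7.11 in KO2, while WT was listed at 0. It was nearest to LINC00664 (0.11), ACTL8 (0.29), LINC01164 (0.30) and ZFP30 (0.30). LOC644189 was nearest to AURKC (0.13) and LINC00665 (0.20), ZNF883 to ZFP14 (0.12), ZNF708 to AACSP1 (0.15) and ZNF793 to GPX3 (0.12). Of the 10 values 6 come from the SETDB1 set, so this measure mostly reflects the KO and WT difference that chose the genes.

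BIX values of the set lay below those of the SETDB1 KO libraries, which come from a separately normalized table. In the ATG5 set each value is single, so differences have no replicate check and no test. On the log2(FPKM + 1) scale 0 of the 4 genes with an FPKM of 1 or more in vector cells were at least 2-fold apart between BIX and mock, against 6.34% of all genes higher and 4.29% lower. In KD cells the count was 0 of 5, against 8.02% higher and 3.69% lower. The median BIX difference was -0.25 over the 4 genes in vector and -0.16 over the 5 in KD, against 0.00 and 0.01 for all genes counted.

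A group of 5 genes had low listed values with and without BIX. A listed 0 in this table need not be a low level, since EHMT2, at a mean of 19.5 FPKM in the KO libraries and 20.9 in WT, was listed at 0 in all 4 values of the ATG5 set. ACTL8 was listed at 0 in KD BIX and at 0.0165 FPKM in KD mock, and at 0 in both vector values. LINC00664 was at 0.0205 FPKM in KD BIX and 0.127 in KD mock, and was listed at 0 in vector BIX and at 0.0252 in vector mock. LINC00665 was at 0.635 FPKM in KD BIX and 0.729 in KD mock, and at 0.564 in vector BIX and 0.714 in vector mock. AURKC was at 0.976 FPKM in KD BIX and 0.824 in KD mock, and at 0.794 in vector BIX and 0.949 in vector mock. LINC01164 was at 0.841 FPKM in KD BIX and 1.06 in KD mock, and at 0.290 in vector BIX and 0.358 in vector mock. In these 5 genes every listed BIX value was under an FPKM of 1.

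ZFP30 was the only gene of the set with more RNA under BIX in both backgrounds. It was at 7.43 FPKM in KD BIX and 3.71 in KD mock, and at 7.12 in vector BIX and 3.22 in vector mock, ratios of 2.0 and 2.21. On the log2(FPKM + 1) scale the differences were 0.84 and 0.94, and with a pseudocount of 0.1 they were 0.98 and 1.12, the second past 2-fold, where 8.28% of genes in vector and 10.4% in KD were at least 2-fold higher. Its BIX values remained far below the 48.6 to 71.5 FPKM of the SETDB1 KO libraries.

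ZFP14 had less RNA with BIX. It was at 0.251 FPKM in KD BIX and 1.35 in KD mock, and at 0.307 in vector BIX and 1.14 in vector mock, ratios of 0.187 and 0.268. The differences were -0.91 and -0.71 with the pseudocount of 1, and -2.04 and -1.61 with 0.1, where 8.28% of genes in KD and 8.63% in vector were at least 2-fold lower. ZFP30 and ZFP14 therefore moved in opposite directions with BIX, although both were higher in the SETDB1 KOs. AACSP1 was at 2.56 FPKM in KD BIX and 4.71 in KD mock, and at 3.69 in vector BIX and 4.6 in vector mock. GPX3 was at 9.89 FPKM in KD BIX and 10.6 in KD mock, and at 6.82 in vector BIX and 8.32 in vector mock. Both were lower with BIX in KD and vector alike, by less than 2-fold.

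**Figure D4:**
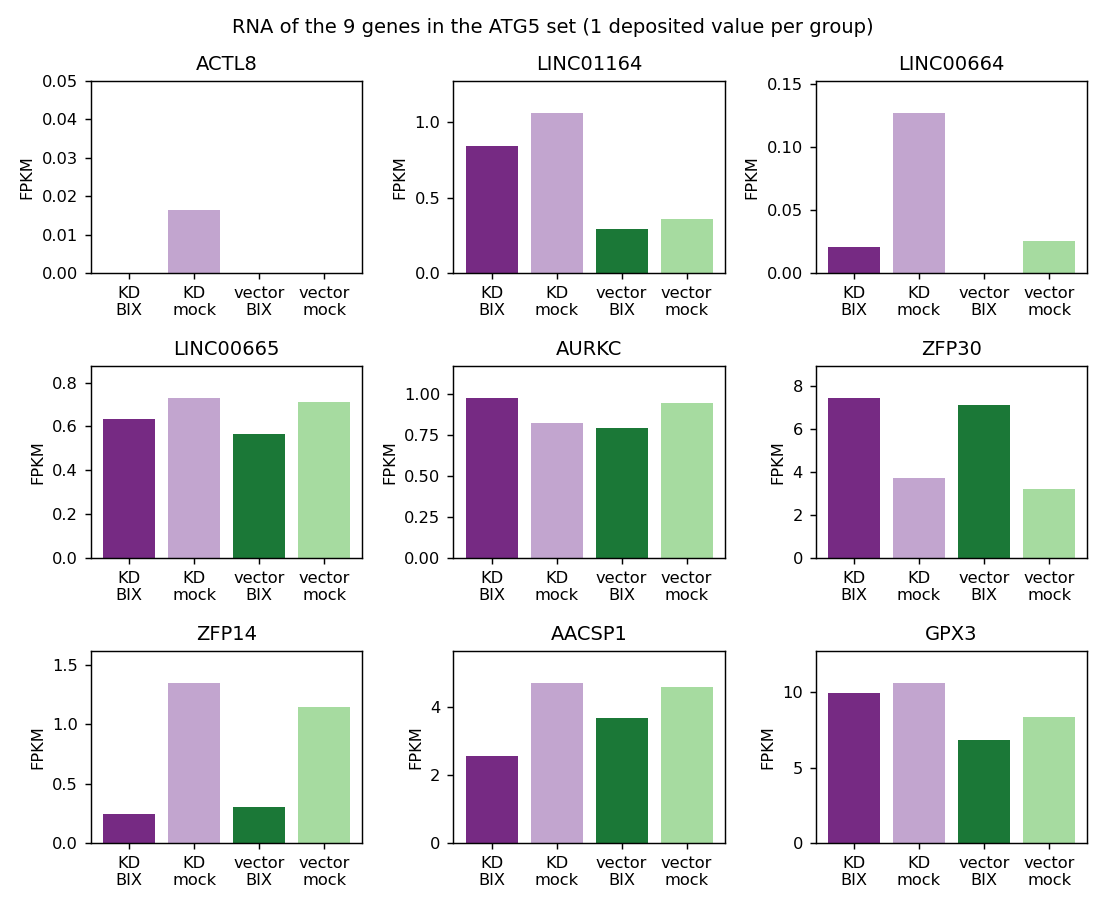
FPKM of the 9 genes in the ATG5 set, with 1 deposited value per bar and a separate axis from 0 for each gene: KD BIX, KD mock, vector BIX and vector mock. The BIX bars are about 7 FPKM against mock bars of 3.22 and 3.71 for ZFP30, and 0.251 and 0.307 against 1.35 and 1.14 for ZFP14.

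The 10 neighbours that rose in the SETDB1 KOs were compared between BIX and mock in the same way. Their log2(FPKM + 1) differences had a median of 0.15 in KD (from -0.26 to 1.30) and 0.09 in vector (from -0.25 to 0.65), and 1 of 10 was at least 2-fold higher in KD and 0 in vector, against 8.02% and 6.34% of all genes. This was TCERG1L in KD, at 10.9 FPKM with BIX and 3.84 in mock. The pseudocount of 1 hides changes of low genes, such as ZNF429, at 0.0789 FPKM in KD BIX and 0.285 in KD mock, and at 0.142 in vector BIX and 0.361 in vector mock. ZFP82, which adjoins ZFP14, was at 2.79 FPKM in KD BIX and 2.03 in KD mock, and at 0.920 in vector BIX and 0.780 in vector mock, so it did not share the lower BIX values of ZFP14.

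Between KD and vector cells, 0 of the 5 genes counted in mock were at least 2-fold apart on the log2(FPKM + 1) scale, against 0.504% of all genes higher and 0.448% lower, and 0 of 3 in BIX, against 1.39% and 0.457%. LINC01164 had the largest ratio of the genes with an FPKM of 1 or more, 2.96 in mock (1.06 FPKM in KD and 0.358 in vector), and its ratio in BIX was 2.90. With a pseudocount of 0.1 it was 1.34 higher in KD mock, where 1.08% of all genes were at least 2-fold higher and 1.06% lower. In BIX, where LINC01164 was under the minimum, these shares were 2.81% and 1.26%. GPX3 was at 10.6 FPKM in KD mock and 8.32 in vector mock, and at 9.89 in KD BIX and 6.82 in vector BIX. The other genes counted were within a ratio of 0.695 to 1.18 of their vector values.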

How the data were processed

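RNA of U2OS cells was poly(A)-selected and sequenced from TruSeq libraries as paired ends, per the labels' protocols. Per the submitters' processing notes the authors used FastQC, cutadapt, TopHat2 and Cufflinks with the builds hg19 and GRCh37, and deposited FPKM per gene; no source used here gives versions, options, annotation or strand. Read counts were not used here, so depth is known only in relative terms. For symbols listed more than once the highest entry was kept, and 1868 short noncoding RNA genes found by name were left out of the SETDB1 table. FPKM was used as log2(FPKM + 1). The 6 SETDB1-set libraries were fitted with limma 3.58.1 in R 4.3.3 (variance trend, genes reaching FPKM 1 in 2 libraries, Benjamini-Hochberg over all genes of a contrast, called under 0.05); the script was tested on simulated data. Single values of the ATG5 set were compared without a test. The genes, lists and tests were chosen with earlier results of these data known. Named genes are the 9, SETDB1, up to 4 called genes per list with the largest difference, called neighbours and the nearest pattern; ATG5, AACS, Aurora kinases, markers, uncalled neighbours, ZNF300, ZNF260 and EHMT2 were added after their values were seen. Neighbours came from RefSeq (GRCh38.p14) by symbol and synonym, for order only. The motifs were chosen after seeing the promoters. Alternatives covered the pseudocount, filters, scaling, repeated symbols, variance trend, replicate block, each library left out and the choice of neighbours.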

Additional observations from a re-analysis of the deposited data

Results flagged for a closer look

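AURKC was picked out because its BIX difference had opposite signs in the 2 backgrounds of the ATG5 set: 0.116 in KD and -0.119 in vector on the log2(FPKM + 1) scale. The values behind it are 0.976 FPKM in KD BIX and 0.824 in KD mock, and 0.794 in vector BIX and 0.949 in vector mock. Each is a single value, and the difference between the backgrounds was not tested.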

How the results depend on the processing

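All 9 genes kept the sign of their KO minus WT difference in every alternative that gave them a value. As that difference chose the genes, its kept sign is no independent check. Of the 9, 0 were called between KO1 and KO2 in any alternative. With an FPKM of at least 5, limma calls for the KO mean against WT fell to 201 of 9371 tested, from 407 of 12619. The called share was thus lower too, not only the number tested. Called neighbours fell to 5 of 8 tested, from 10 of 17. With neighbours taken among genes with an entry, a choice made after seeing the data, the count was 16. Among neighbours with a WT library at an FPKM of 1 or more, also added after seeing the data, it was 6 of 12. With each library left out in turn, 274 to 438 genes were called in the mean, 0 to 5 between KO1 and KO2 (3 and 5 without the first and second KO1 library, 2 without either WT library), and 8 to 10 neighbours; an arm with 1 library was taken to vary like the others. Genes of the 9 at least 2-fold apart numbered 0 in each single comparison. With a pseudocount of 0.1 they numbered 2 of 4 (BIX, vector), 1 of 5 (BIX, KD) and 1 of 5 (KD, mock). Of all genes, 8.28% were then higher and 8.63% lower (BIX, vector), 10.4% and 8.28% (BIX, KD), and 1.08% and 1.06% (KD, mock). At 1.5-fold with the pseudocount of 1 the counts were 2 of 4, 3 of 5 and 1 of 5. No share of all genes was taken at 1.5-fold, so these counts are not read as a result about the 9. With the replicate block, 506 genes were called in the mean, 0 between KO1 and KO2 and 10 neighbours; unadjusted p between KO1 and KO2 was 0.0327 for ACTL8 and 0.0332 for ZFP30. Replicate numbers were not taken as pairing, since 1 of 3 correlations was near 0: deviations of same-numbered libraries correlated at 0.20 (KO1 and KO2), 0.37 (KO1 and WT) and 0.00 (KO2 and WT) across genes. Ratios of low values were more alike between same-numbered libraries (10.4% to 21.4% of genes at the commonest ratio) than between others (5.88% to 8.0%), so a link by number is possible. The largest range over settings was that of ACTL8, 3.26 (quantile normalization) to 5.90 (pseudocount of 0.1). Low WT values rest on few reads, and the ATG5 set has no replicates here.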
